A study of Mus musculus with 6 samples.

Results

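Accessible chromatin was examined at 10 mouse genes of innate nucleic acid and microbial sensing: Ddx58, Ifih1, Dhx58, Zbp1, Adar, Tlr2, Tlr4, Tlr7, Tlr9 and Myd88. Each peak of the assay was assigned to the gene with the nearest transcription start site (TSS), and the peaks of these genes within 100000 bp of that start were taken. This gave 73 of the 175929 peaks, spread over 8 of the 10 genes. Adar held 20 peaks, Dhx58 12, Ifih1 10, Tlr9 10, Ddx58 9, Zbp1 5, Myd88 4 and Tlr2 3, whereas Tlr4 and Tlr7 had no peak (0). No peak (0) of these genes lay beyond the distance limit, and the farthest inside it was at -91304 bp relative to the Adar start (log2 difference 0.71, described with Adar).

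The cells were a mouse model of acute myeloid leukaemia driven by AE9a, a truncated AML1/ETO fusion protein delivered with a retrovirus that also marks cells with GFP. Donor cells of both groups were Usp18+/f UBCER-Cre, so that oil controls carried the floxed Usp18 allele and the Cre too. The Cre is driven by a ubiquitin C promoter, which is active broadly across cell types, and is switched on by tamoxifen. Recipient mice that had become sick received oil or tamoxifen, which is intended to remove 1 Usp18 allele. On day 3 from the start of the injections, spleens were taken, and Lin- c-Kit+ cells with the GFP mark were sorted and profiled by ATAC-seq, in which a transposase cuts and tags open DNA. The oil group comprised replicates 1, 2 and 4 (n = 3) and the tamoxifen group replicates 1, 3 and 4 (n = 3). Since no library came from tamoxifen-treated cells without the floxed allele, the drug and the loss of Usp18 cannot be told apart here. The study's methods count the sorted cells by mouse, and the number of mice they give for a group equals that of its libraries, although its replicate statement for ATAC-seq gives fewer. The labels themselves do not tie a library to a mouse, and where libraries shared one, p-values would measure a spread that may be technical.

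Cells detect foreign or misplaced nucleic acids with receptors in the cytosol and in endosomes. RIG-I (Ddx58) and MDA5 (Ifih1) bind double-stranded RNA and signal through the mitochondrial adaptor MAVS to induce type I interferon, and LGP2 (Dhx58) modulates both. ZBP1 binds left-handed Z-form nucleic acid and can start necroptosis through RIPK3, and ADAR1 (Adar) edits adenosine to inosine in double-stranded RNA, which keeps the cell's own RNA from triggering MDA5 and ZBP1. TLR2 and TLR4 detect bacterial lipoprotein and lipopolysaccharide at the cell surface, TLR7 and TLR9 detect single-stranded RNA and CpG DNA in endosomes, and MyD88 is the adaptor these receptors share. Many of these genes are themselves induced by interferon, whose signalling is restrained by USP18.

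The sequences below are shown because the largest differences lay at Zbp1 and because the start peaks of the cytosolic RNA sensors and of Myd88 held an interferon response element core. Peaks are named by the gene and the distance in bp from its start to the peak centre, with downstream positive. All runs are RefSeq sequence of GRCm38 (mm10), read 5′ to 3′ on the minus strand, which is the coding strand of each of these genes. The Zbp1 peaks at +31511 (chr2:173187299-173187524) and +32393 (chr2:173186396-173186663) are intergenic and the peak at -900 (chr2:173219721-173219924) lies upstream of the start. In these 3 peaks capitals mark a GAS match (TTCNNNGAA) or a RUNX match (TGTGGT, here on the other strand):
Zbp1 +31511: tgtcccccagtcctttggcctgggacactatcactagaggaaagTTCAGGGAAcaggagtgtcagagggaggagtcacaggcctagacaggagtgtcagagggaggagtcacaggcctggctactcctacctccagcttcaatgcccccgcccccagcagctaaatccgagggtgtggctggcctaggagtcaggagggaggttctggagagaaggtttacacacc
Zbp1 +32393: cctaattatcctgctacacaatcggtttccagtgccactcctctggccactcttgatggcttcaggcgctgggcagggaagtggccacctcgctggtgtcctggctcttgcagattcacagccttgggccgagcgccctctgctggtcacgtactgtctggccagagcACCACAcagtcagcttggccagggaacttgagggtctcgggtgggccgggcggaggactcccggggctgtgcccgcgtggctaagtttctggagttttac
Zbp1 -900: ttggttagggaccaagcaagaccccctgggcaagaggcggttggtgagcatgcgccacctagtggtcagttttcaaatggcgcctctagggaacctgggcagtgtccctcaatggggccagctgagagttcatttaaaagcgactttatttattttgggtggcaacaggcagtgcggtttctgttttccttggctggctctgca
The +31511 run contained a direct repeat of 32 identical bases at a spacing of 34 bases.

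For the next 4 runs capitals mark the interferon-stimulated response element (ISRE) core, GAAANNGAAA, on either strand. The runs for Ddx58 (chr4:40239801-40239934), Dhx58 (chr11:100704247-100704397) and Myd88 (chr9:119339994-119340187) hold the part of the start peak before the TSS and its first 25 transcribed bases. The run for Ifih1 (chr2:62646204-62646233) is a stretch of 30 bases around the match. The matches of Ddx58 and Ifih1 lie inside the transcript, that of Dhx58 spans the TSS and that of Myd88 lies before it:
Ddx58 -1: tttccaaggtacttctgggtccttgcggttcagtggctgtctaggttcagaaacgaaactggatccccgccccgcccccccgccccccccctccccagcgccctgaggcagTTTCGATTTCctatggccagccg
Dhx58 -20: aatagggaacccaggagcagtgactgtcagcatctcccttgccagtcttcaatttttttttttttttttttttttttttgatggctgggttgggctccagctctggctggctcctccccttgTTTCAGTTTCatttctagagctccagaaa
Ifih1 +125: gaagagaatcGAAACAGAAAccgatctgtg
Myd88 -10: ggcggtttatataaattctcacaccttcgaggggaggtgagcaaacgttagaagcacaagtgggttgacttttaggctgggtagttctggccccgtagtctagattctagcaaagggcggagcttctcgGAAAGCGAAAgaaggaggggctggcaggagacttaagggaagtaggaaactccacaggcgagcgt
Within the central 200 bp of each peak, the ISRE core occurred in 4 of the 73 peaks (5.48%), against 2.04% of 175723 peaks of the whole table and 1.95% of 53461 promoter-proximal peaks. These 4 peaks were the start peaks of Ddx58, Dhx58, Ifih1 and Myd88 shown above. The GAS letters were present in 4 of 73 peaks (5.48%, all peaks 4.85%) and the AP-1 letters TGANTCA in 7 (9.59%, all peaks 6.61%). RUNX letters occurred in 12 peaks (16.4%, all peaks 18.7%), the PU.1 letters GAGGAAGT in 5 (6.85%, all peaks 3.75%) and the NF-kB consensus in 5 (6.85%, all peaks 5.03%). Each motif was searched on both strands and matches of different motifs could overlap. None (0) of the 5 Zbp1 peaks held the ISRE core in this window. A match describes letters in the reference and says nothing of a bound factor.

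Libraries held 57.4 to 74.7 M tags in total (1 M is 1000000) and 17.5 to 21.1 M in peaks. Tamoxifen replicate 4 stood apart: over all peaks its log2 normalised tags correlated with the other tamoxifen libraries at 0.949 and with the oil libraries at 0.960 to 0.964, whereas the other tamoxifen libraries correlated with each other at 0.968 and with the oil libraries at 0.933 to 0.945. Results are therefore also given without it where it decides them. Usp18 itself, as tags summed over its peaks, was at 1772 ± 15.1 normalised tags in oil and 1738 ± 46.7 in tamoxifen (SD, n = 3 each), which does not show whether an allele was removed. The start of Kit, the gene whose product was used in the sort, held 272 normalised tags per 100 bp in oil and 283 in tamoxifen.

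Of the 8 genes with a peak, only Zbp1 passed an adjusted p of 0.05 in DESeq2 on the tags summed over its peaks. Its accessibility was 1.63-fold higher after tamoxifen. Of the 73 peaks, 1 passed an adjusted p of 0.05 in the DESeq2 fit of all peaks, the Zbp1 peak at +31511, which rose, against a background of 1.39% of all peaks called and 1.22% called higher. No peak (0) combined a fold over 2 with that adjusted p in DESeq2 (background 0.654%), and 8 had an unadjusted p under 0.05 (background 9.02%), 6 higher and 2 lower. On gene-summed tags, 1 of the 8 genes with a peak rose and none (0) fell, against a background of 4.98% of 19781 genes called higher and 1.02% called lower. The median log2 difference was 0.02 over the 73 peaks and -0.0013 over all peaks, and without the Zbp1 peaks the median of the other 68 was 0.0035. The tamoxifen libraries lay wholly above the oil libraries at 11 of the 73 peaks (background 11.9%) and wholly below at 3 (background 10.0%). Of the 11 peaks, 5 belonged to Zbp1 and 4 to Adar. Among the 11, Zbp1 -900, Adar -49299 and Tlr2 +41 were found as a peak in the tamoxifen group only, which favours this order. Zbp1 +32831 was found in the oil group only.

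**Figure D1:**
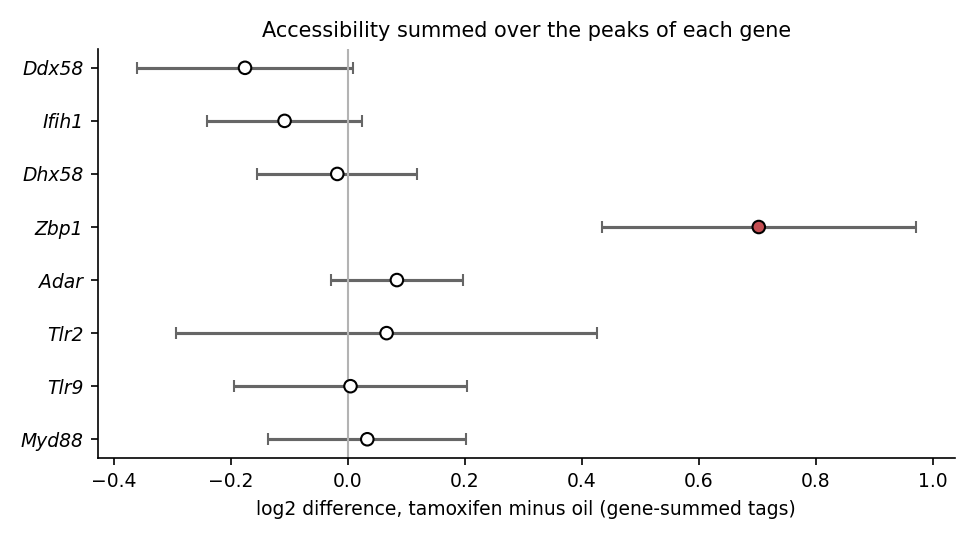
Log2 difference (tamoxifen minus oil, x axis) of tags summed over the peaks of each gene (y axis), with points for the DESeq2 estimate and bars for its 95% interval; the filled point passed an adjusted p of 0.05. Zbp1 lies at 0.70, and the intervals of the other 7 genes include 0.

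**Figure D2:**
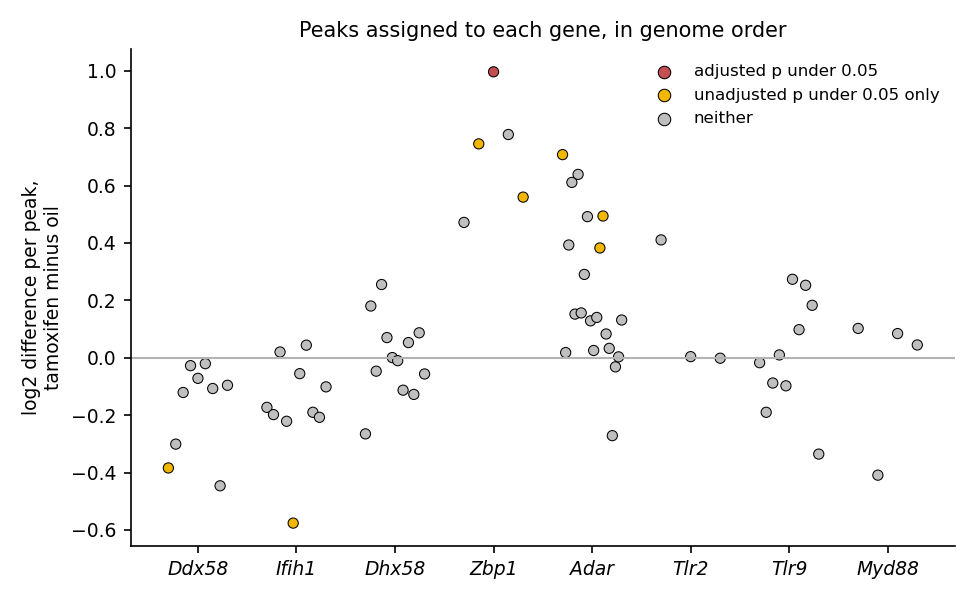
Log2 difference per peak (y axis, tamoxifen minus oil) for the 73 peaks, grouped by gene (x axis) and in genome order within each gene, with colour for the DESeq2 p. The 5 Zbp1 peaks all lie above 0, from 0.47 to 1.00. All 9 Ddx58 peaks lie below 0, from -0.45 to -0.02, and none of them passed. Of the Ddx58 peaks, 2 were found in the oil group only, which favours lower tamoxifen values. Of the Zbp1 peaks, 1 was found in the tamoxifen group only and 1 in the oil group only. Peaks of 1 gene are not replicates.

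Zbp1 (chr2:173206612-173218959, minus strand) had no peak (0) within its gene body. Summed over its 5 peaks, the normalised tags were 179, 198 and 211 in oil replicates 1, 2 and 4 and 355, 328 and 275 in tamoxifen replicates 1, 3 and 4. All tamoxifen libraries exceeded all oil libraries, and tamoxifen replicate 4 was the lowest of its group. The log2 difference was 0.70 (SE 0.14, 95% interval 0.43 to 0.97), with an adjusted p of 3.01e-05 in DESeq2, which ranked Zbp1 at 190 of 19781 genes by p. The call held without any 1 of the libraries, with log2 differences of 0.62 to 0.80 and adjusted p of 3.95e-07 to 0.00724. It was lost when only peaks within 10000 bp of the start were summed, which left the -900 peak alone (log2 difference 0.77, adjusted p 0.411).

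The called Zbp1 peak, +31511, lay 19088 bp past the 3′ end of the gene, in the interval between Zbp1 and Pck1, which encodes an enzyme of gluconeogenesis. It held 34.2, 44.4 and 42.1 normalised tags in oil replicates 1, 2 and 4 and 83.6, 89.7 and 71.2 in tamoxifen replicates 1, 3 and 4. The groups were well separated, and the lowest tamoxifen library stood 26.9 tags above the highest oil library. The log2 difference was 1.00 (SE 0.25, 1.99-fold) with an adjusted p of 0.0106 in DESeq2 and 0.005 in edgeR. This call rested on all oil libraries and on tamoxifen replicates 1 and 3, since leaving out any of these 5 raised the adjusted p to between 0.0651 and 0.237, with log2 differences of 0.90 to 1.08. Without tamoxifen replicate 4 the adjusted p was 0.00475.

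The other Zbp1 peaks pointed the same way but did not pass on their own. The +32393 peak, with 635 bp between it and the +31511 peak, held 52.4, 53.6 and 52.0 normalised tags in oil and 80.7, 109 and 75.9 in tamoxifen, in the same order of replicates. Its log2 difference was 0.75 (SE 0.24, adjusted p 0.0888 in DESeq2), and it passed without tamoxifen replicate 4 and in edgeR. The -900 peak, nearest the start, was the lowest of the 5, with 17.1, 17.1 and 17.0 tags in oil and 40.6, 24.5 and 23.7 in tamoxifen (log2 difference 0.78, SE 0.40, adjusted p 0.566). The upstream peak at -10899 lies in intron 2 of Pmepa1, the neighbouring gene, and rested mainly on tamoxifen replicate 1 at 117 tags, with 80.2 and 69.8 in replicates 3 and 4 against 51.8 to 69.0 in oil. The +32831 peak held 22.9 ± 1.85 tags in oil and 32.3 ± 1.85 in tamoxifen (SD, n = 3 each). At all 5 peaks every tamoxifen library exceeded every oil library. However, the -900 region was found as a peak in the tamoxifen group only, which favours higher tamoxifen values. The +32831 region was found as a peak in the oil group only. Peaks of 1 gene in the same 6 libraries are not replicates of each other. With the called peak left out, the remaining 4 peaks summed to 153 ± 9.07 tags in oil and 240 ± 36.8 in tamoxifen (SD, n = 3 each).

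**Figure D3:**
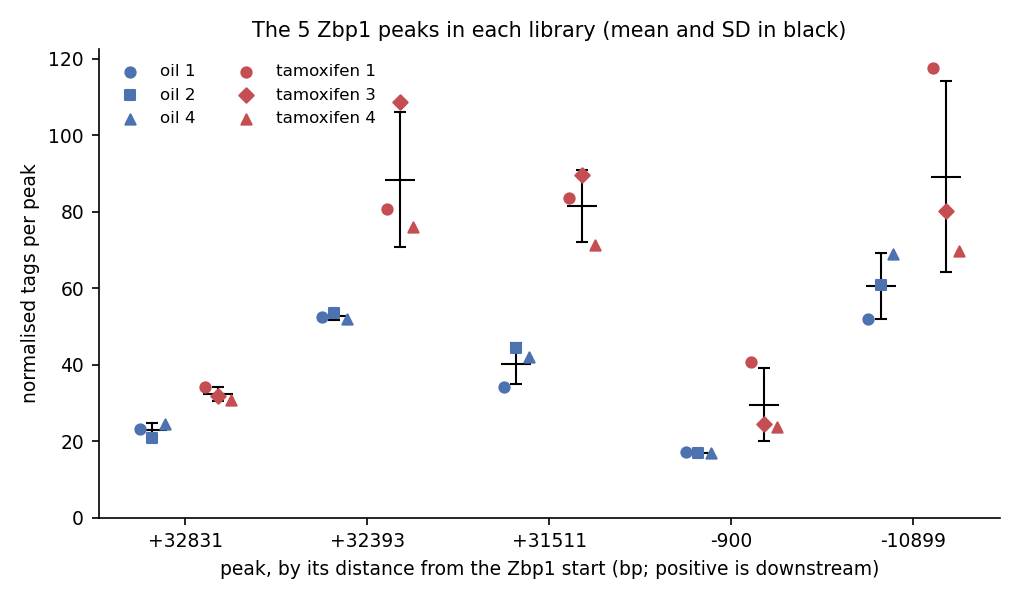
Normalised tags per peak (y axis) at the 5 Zbp1 peaks (x axis, by distance from the start in bp) in each oil (blue) and tamoxifen (red) library, with the mean and SD of the 3 libraries in black. At each peak the tamoxifen libraries lie above the oil libraries, with the widest gap at +31511. The -900 region was found as a peak in the tamoxifen group only and the +32831 region in the oil group only.

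Pck1, on the other side of the same interval, had 4 of the 9 peaks found within 100000 bp of the Zbp1 start. The peak at the Pck1 3′ end (chr2:173159423-173159630) held 21.5, 24.4 and 11.6 normalised tags in oil and 49.3, 45.1 and 41.0 in tamoxifen and passed (log2 difference 1.23, SE 0.36, adjusted p 0.0454 in DESeq2). Its intergenic peaks, next to those of Zbp1, differed by 0.25 to 0.40 on the log2 scale and did not pass, and the Pck1 sum differed by 0.52 (adjusted p 0.0491). The assignment of the intergenic peaks to Zbp1 rests on distance alone, as the nearest start was used. Across the 6 libraries, the genes whose summed tags followed those of Zbp1 most closely, among 16949 with a mean of at least 100 tags, were Dpysl4 (Pearson r 1.000), Thbd (0.999), Prag1 (0.999), Mrgpra2a (0.998) and Nckap5 (0.998). An r above 0.9 was reached by 1253 genes (7.39%), and all points shared the same 6 libraries and their group difference.

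Adar (chr3:89714469-89753455, plus strand) had non-overlapping groups at its upstream start and overlapping groups at the peak on its downstream start, and no Adar peak passed. RefSeq starts transcripts at 89715022 (930 codons) and 89715238 (1217 codons), and farther along at 89730718 (1152 and 1178 codons). At the upstream start, the peak at -106 (chr3:89714895-89715369) held 97.6, 90.2 and 114 normalised tags in oil replicates 1, 2 and 4 and 147, 123 and 154 in tamoxifen replicates 1, 3 and 4. Its log2 difference was 0.49 (SE 0.18, unadjusted p 0.00703, adjusted p 0.213 in DESeq2), and the adjusted p stayed between 0.061 and 1 under 13 other settings. The neighbouring peak at -490 held 109, 112 and 116 tags in oil and 146, 150 and 143 in tamoxifen (log2 difference 0.38, SE 0.17, adjusted p 0.395). At both peaks the groups did not overlap.

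The peak at the downstream Adar start, -50 (chr3:89730558-89730779), was the strongest of all 73, with 653, 641 and 617 tags in oil and 619, 651 and 601 in tamoxifen. The groups overlapped there, and the 95% interval of the log2 difference was -0.20 to 0.14. Just before it, the -618 peak held 65.9 to 75.6 tags in oil and 55.4 to 60.4 in tamoxifen, the only Adar peak whose tamoxifen libraries all lay below oil (log2 difference -0.27, adjusted p 0.864). The upstream start peaks together amounted to 31.7%, 31.5% and 37.3% of the downstream start peak in the oil libraries and to 47.3%, 42.0% and 49.5% in the tamoxifen libraries (33.5% ± 3.30 and 46.2% ± 3.87, SD, n = 3 each). This ratio was chosen after the values were seen and was not tested. Another 9 peaks assigned to Adar lay within Kcnn3, a potassium channel gene upstream, and among these the -91304 peak had the largest difference (0.71, SE 0.28, adjusted p 0.284). Summed over its 20 peaks, Adar differed by 0.08 on the log2 scale (95% interval -0.03 to 0.20, adjusted p 0.488).

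**Figure D4:**
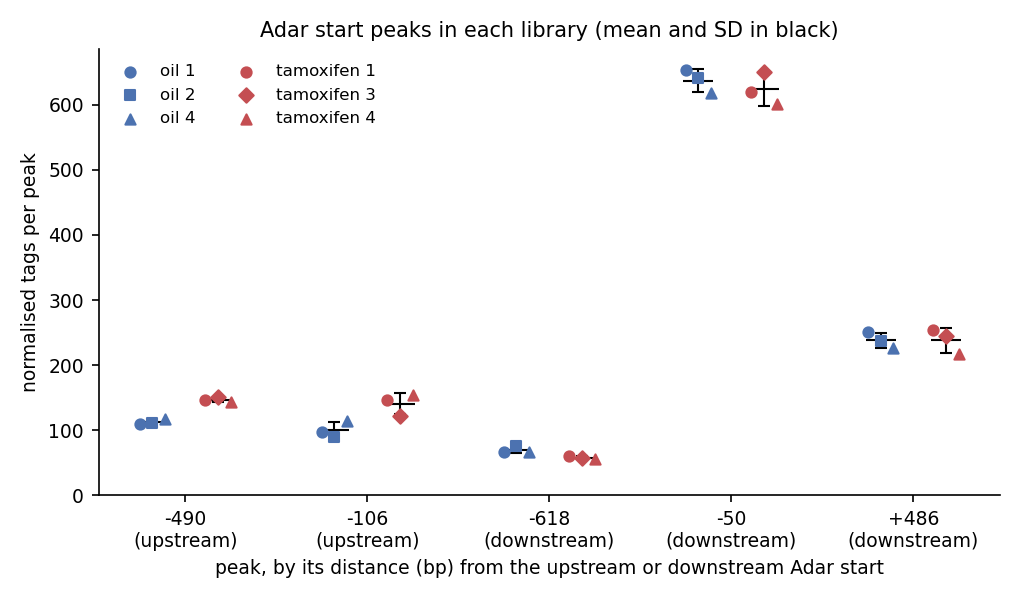
Normalised tags per peak (y axis) at the Adar peaks around the upstream and downstream starts (x axis, distance in bp from that start) in each library, with the mean and SD of the 3 libraries in black. The oil and tamoxifen libraries separate at the upstream peaks, 90.2 to 116 against 123 to 154, and overlap at -50 and +486.

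The cytosolic RNA sensors did not pass in any peak (0 of 31 in DESeq2 and 0 in edgeR). Of all peaks, 1.39% passed in DESeq2 and 2.92% in edgeR. In DESeq2, 2 of the 31 had an unadjusted p under 0.05 (background 9.02%). The median log2 difference of these peaks was -0.10. Of the 31, 4 were found in the oil group only and 0 in the tamoxifen group only, against 30553 and 19718 of all 175929 peaks. Being found in the oil group only favours a negative value. For Ddx58, which encodes RIG-I, the summed tags were 531, 579 and 548 in oil and 490, 462 and 515 in tamoxifen. Every tamoxifen library lay below every oil library, but the difference of -0.18 (SE 0.09, adjusted p 0.317) did not pass. Its start peak, -1, which carries the ISRE core printed above, held 143, 141 and 109 tags in oil and 142, 119 and 114 in tamoxifen (95% interval of the log2 difference -0.43 to 0.28). The intron 10 peak at +21253 held 109 to 129 tags in oil and 86.5 to 101 in tamoxifen and had the smallest unadjusted p of the gene (log2 difference -0.38, unadjusted p 0.0416, adjusted p 0.514).

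Ifih1, which encodes MDA5, had the strongest start peak of the sensors, +125, with 394, 426 and 392 tags in oil and 421, 428 and 401 in tamoxifen. The groups overlapped and the 95% interval of the log2 difference was -0.16 to 0.24. In intron 1, the +2231 peak held 62.9, 65.8 and 55.1 tags in oil and 41.6, 31.8 and 50.3 in tamoxifen, the largest negative value of the 73 (log2 difference -0.58, SE 0.27, unadjusted p 0.0354, adjusted p 0.482). The Ifih1 sum was 1259 ± 11.6 in oil and 1167 ± 41.8 in tamoxifen (SD, n = 3 each), a log2 difference of -0.11 that did not pass (adjusted p 0.429).

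Dhx58, which encodes LGP2, did not pass in any peak or on its sum. Its start peak, -20, held 231, 229 and 219 tags in oil and 238, 255 and 229 in tamoxifen, and the groups overlapped. Its sum was 1066 ± 17.2 in oil and 1054 ± 19.3 in tamoxifen, and the 95% interval of the log2 difference was -0.15 to 0.12. Of its 12 peaks, that in the 3′ untranslated exon at +9148 had the smallest unadjusted p (0.193), with 80.5 to 92.7 tags in oil and 94.7 to 111 in tamoxifen.

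The Toll-like receptors had weak start peaks or none. The Tlr2 start peak, +41, held 26.5, 17.6 and 27.8 tags in oil and 30.0, 28.4 and 36.3 in tamoxifen, just above the oil libraries (log2 difference 0.41, SE 0.36, adjusted p 0.869). This region was found as a peak in the tamoxifen group only, which favours higher tamoxifen values. The other Tlr2 peaks lie within Tmem131l and differed by 0.0038 and -0.0016 on the log2 scale. Tlr9 had a weak start peak, -21, with 22.6 to 25.4 tags in oil and 21.7 to 27.9 in tamoxifen. Its summed tags were 411 ± 6.14 and 412 ± 19.2 (SD, n = 3 each), with a 95% interval of the log2 difference from -0.19 to 0.20. Within exon 2 of Tlr9, the +3983 peak held 47.3 to 63.6 tags in oil and 60.5 to 69.6 in tamoxifen and had the smallest unadjusted p of the gene (0.27).

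Around Tlr4, which encodes the lipopolysaccharide receptor (chr4:66827551-66846581), the table had no peak (0) of any gene within 100000 bp, and the nearest lay 1172637 bp from the start. Around Tlr7 (chrX:167303380-167330574) no peak was assigned to it, and the nearest, 40769 bp from its start, was assigned to Tlr8, the adjacent receptor gene. The summed Tlr8 tags were 95.6 ± 8.75 in oil and 92.9 ± 19.3 in tamoxifen. A region called as a peak in neither group does not enter the table, so a low signal at these genes was not measured.

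Myd88 (chr9:119335934-119340018, minus strand), the shared adaptor, was open at its start in both groups. Its -10 peak, with the ISRE core ahead of the TSS, held 265, 275 and 249 tags in oil and 267, 288 and 260 in tamoxifen, and the 95% interval of the log2 difference was -0.20 to 0.29. The peak past its 3′ end, +4211, held 20.6 ± 0.668 tags in oil (SD, n = 3) and 21.3, 8.36 and 16.8 in tamoxifen (adjusted p 0.923). Summed over 4 peaks, Myd88 was at 590 ± 14.8 in oil and 604 ± 2.78 in tamoxifen.

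The level of the start peaks, in normalised tags per 100 bp over all 6 libraries, ran from Adar (284) through Ifih1 (199), Dhx58 (110), Myd88 (97.3), Ddx58 (59.0), Zbp1 (11.4) and Tlr9 (10.7) to Tlr2 (5.89). The ranges of neighbours in this order overlapped between Dhx58 and Myd88 and between Zbp1 and Tlr9, and did not overlap between the others. Among 14458 genes with a peak within 1000 bp of the start, Adar stood at the 82.7th percentile, Ifih1 at the 60.8th, Zbp1 at the 9.39th and Tlr2 at the 0.207th. For Adar the value is that of the -50 peak at the downstream start. Levels are per length, and the Tlr2 peak is 471 bp wide where that of Tlr9 is 228 bp. For Zbp1 the value is that of the -900 peak, which lies upstream of the start and does not cover it. It held 8.36 ± 0.0184 tags per 100 bp in oil and 14.5 ± 4.66 in tamoxifen (SD, n = 3 each), with tamoxifen replicate 1 far above replicates 3 and 4.

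**Figure D5:**
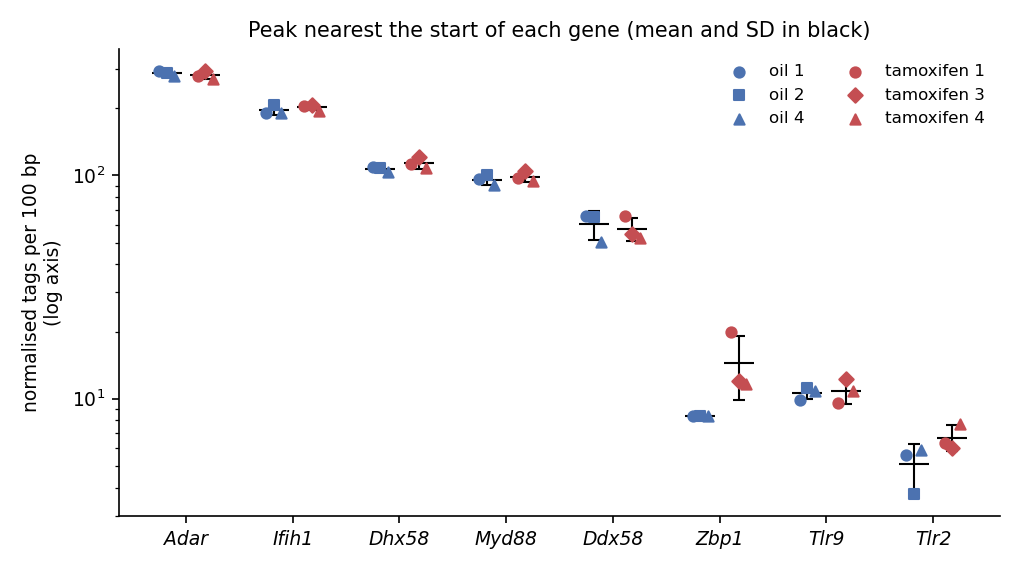
Normalised tags per 100 bp (y axis, log scale) at the peak nearest the start of each gene (x axis, ordered by the mean over 6 libraries) in each library, with the mean and SD of the 3 libraries in black. Levels fall from 284 at the downstream start of Adar to 5.89 at Tlr2. The groups separate at Zbp1 and Tlr2, but neither peak passed. Both were found as a peak in the tamoxifen group only, which favours higher tamoxifen values.

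Other genes of these pathways were read from lists of 66 symbols, of which 63 had 643 peaks. Of these peaks, 3 passed in DESeq2, all 3 higher, against the background of 1.39%, and the median log2 difference was -0.0034. The passing peak with a fold over 2 lay in intron 3 of Ly96 (chr1:16703249-16703654), which encodes MD-2, the partner that TLR4 needs to bind lipopolysaccharide. It held 64.0, 79.5 and 95.4 normalised tags in oil and 201, 167 and 156 in tamoxifen, without overlap (log2 difference 1.13, SE 0.19, adjusted p 2.95e-06). The other 2, named after their values were seen, were the intron 1 peak of Cnpy3, a chaperone for Toll-like receptors (log2 difference 0.45, adjusted p 0.0186), and the +54562 peak of Traf6, a ubiquitin ligase downstream of MyD88 (0.50, adjusted p 0.0187). Without tamoxifen replicate 4, 16 of the 643 peaks passed, where 3.71% of all peaks did. Without oil replicate 1, oil replicate 4 or tamoxifen replicate 3 the count was 1, where 0.538%, 0.564% and 0.358% of all peaks passed.

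By list, 2 of 36 peaks of receptor partners and 1 of 182 peaks of kinases and TRAF proteins passed. No peak (0) passed in DESeq2 among 69 of other Toll-like receptors, 47 of adaptors, 67 of DNA sensors and nucleases, 177 of RIG-I-like receptor regulators or 65 of other RNA sensors. Of these, 5, 3, 3, 9 and 4 had an unadjusted p under 0.05, against a background of 9.02% of all peaks. On gene-summed tags none (0) of the 63 genes passed in DESeq2 and 9 had an unadjusted p under 0.05 (background 17.8%). Ly96 was at the edge (log2 difference 0.24, adjusted p 0.05004) and passed in edgeR (adjusted p 0.0381). The adaptors had the lowest median of these pathway lists, -0.12 over 6 genes, where all genes had -0.0053. Without tamoxifen replicate 4, 6 of the 63 genes passed, where 14.9% of all genes did, and without any other library none (0) passed.

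Some markers of other cell types moved with the treatment, as 4.98% of all genes were called higher and 1.02% lower. Of 8 T-cell genes, 2 rose and none (0) fell on gene-summed tags, Cd3d (log2 difference 0.68, adjusted p 1.37e-05) and Thy1 (0.26, adjusted p 0.00747), and the summed level of the list was 1940 to 2062 in oil and 2316 to 2411 in tamoxifen. Lck (log2 difference -0.20, adjusted p 0.321) and Cd3g (-0.36, adjusted p 0.761) had values below 0 and did not pass. Cd3d, Cd3e, Cd2 and Cd8a had no peak within 1000 bp of their starts, and the start peaks of Lck and Cd3g held 12.4 and 9.62 normalised tags per 100 bp in oil and 9.22 and 7.66 in tamoxifen. Among the erythroid genes reported here, Trim10 fell (-0.33, adjusted p 0.022). No gene (0) of the B-cell (6 with a peak), dendritic (9) or mature myeloid (12) lists passed in DESeq2. Each of these lists had 1 gene at an unadjusted p under 0.05, against a background of 17.8% of all genes. Of 6 blast markers 2 rose, Cd34 (0.83, adjusted p 3.44e-09) and Mpo (0.34, adjusted p 0.0461). The other blast markers did not pass, with log2 differences of 0.14 for Runx1, 0.01 for Kit, -0.08 for Myb and -0.14 for Elane. The cells had been sorted as Lin- with a lineage antibody cocktail, which is meant to remove mature blood cells. In bulk cells, a change in the share of a cell type and a change per cell cannot be told apart, and the part of these markers in the Zbp1 result was not tested.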

How the data were processed

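ATAC-seq libraries of 3 oil and 3 tamoxifen samples were analysed from a deposited table of raw tags per peak. According to the file header and the study's methods, the authors aligned to mm10 using Bowtie2, found peaks of 200 bp for each group using HOMER, merged the lists and counted tags per peak with at most 3 tags per position. The deposited values are estimated counts in steps of 0.5 and are not normalised. Tool versions are not given in the sources used here.

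Tags were rounded to whole numbers and all 175929 peaks were fitted together with DESeq2 1.42.0 in R 4.3.3 (Wald test of tamoxifen against oil, Benjamini-Hochberg adjustment over all peaks). The study fitted only peaks over 3000 bp from a TSS, and separate fits were an alternative. Tags were also summed per gene over peaks within 100000 bp and fitted over 19781 genes. Normalised tags are tags divided by DESeq2 size factors, and intervals are the estimate ± 1.96 SE. Per gene, the peak nearest the TSS, that with the smallest unadjusted p and every passing peak were named, other peaks being added where the text says so or to complete the Zbp1 and Adar loci. Pathway genes were named where a sum passed or where a peak passed with a fold over 2. The members and lists were chosen with earlier results of these data known. Alternatives were edgeR 4.0.16 (robust quasi-likelihood, TMM), other size factors, a filter of 10 tags, distance limits, an adjusted p of 0.1 and leaving out libraries. The fits were tested on simulated data. Sequences came from RefSeq GRCm38, in which no peak (0) ended beyond any of 21 chromosomes compared. To look for a library deposited more than once, the chi-square of tags divided by its degrees of freedom was computed within groups. It was 1.04 to 1.22 for oil and 1.49 to 2.68 for tamoxifen pairs. Counting noise alone would give 1 (SD 0.00337), which is approximate here because the tags are estimated counts. Oil replicates 1 and 2, at 1.04, lay close to that value. No libraries were merged. This does not show that libraries came from separate mice. Depth of 17.5 to 21.1 M tags in peaks gave a median of 45.0 to 57.0 tags per peak, at which counting noise is not small beside the spread of libraries. Some values of the erythroid marker list are not reported here.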

Additional observations from a re-analysis of the deposited data

How the results depend on the processing

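Zbp1 kept its higher summed tags in all 14 alternatives (log2 difference 0.62 to 0.80) and passed in 11. It missed the threshold within 10000 bp (0.77), within 3000 bp (0.77) and with a replicate block (0.69). The Zbp1 +31511 peak stayed higher in all 13 (0.90 to 1.09) and passed in 7. Leaving out libraries gave 0.90 to 1.09, with 0 to 2 passing peaks of the 73 and 0 to 1 among the named ones. Of all peaks, 0.358% to 3.71% passed in these fits. Within 10000 or 3000 bp, 0 peaks and 0 genes passed, because the called peak lies farther out. Of all genes, 3.22% and 2.23% passed at these limits. An adjusted p under 0.1 gave 2 of the 73 peaks, where 1.97% of all peaks passed. In edgeR 2 passed as well, where 2.92% of all peaks did. A fold over 2 with an adjusted p under 0.05 was met by 1 peak with size factors from total mapped tags and by 0 to 1 when libraries were left out.

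Of the 643 pathway peaks, 6 passed at an adjusted p under 0.1 and 11 in edgeR, where 1.97% and 2.92% of all peaks passed. Within 10000 or 3000 bp 1 passed, where 1.39% of peaks at any distance did. With the block 0 passed (0.0296% of all peaks), and with libraries left out 1 to 16 did (0.358% to 3.71% of all peaks). Pathway genes passing numbered 1 of 63 with edgeR, TMM, total tags in peaks, total mapped tags or an adjusted p under 0.1. Under these settings 6.01% to 8.37% of all genes passed. With libraries left out 0 to 6 passed, where 2.32% to 14.9% of all genes did.

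Replicate numbers 1 and 4 occur in both groups, but their deviations from the group means correlated at only -0.044 and 0.0508, so the libraries share a number and no shown pairing. With the replicate block on these 4 libraries, 52 of all peaks and 63 genes passed, with 0 peaks and 0 genes of the 10 (+31511 at 1.01, adjusted p 1; Zbp1 sum at 0.69, adjusted p 0.703). Fewer libraries enter that fit.

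Directions near 0 turned for Ddx58 -1 with the block (0.018), the Dhx58 sum with total mapped tags (0.017) and within 10000 bp (0.0081), the Tlr2 sum with the block (-0.014), Tlr9 -21 with total tags in peaks (-0.0045) and without oil replicate 1 (-0.048; -0.048 to 0.102 with libraries left out), and the Tlr9 sum within 3000 bp (-0.043), without oil replicate 1 (-0.0057) and without tamoxifen replicate 4 (-0.027; -0.027 to 0.038 with libraries left out). In none of these did the value pass. Fits that gave no adjusted p were not counted. The Tlr9 -21 range therefore covers 3 of the 6 fits with a library left out. The other 253 such comparisons of single peaks and genes kept direction and call. Over all peaks, 2448 passed, with 5136 in edgeR and 629 (without tamoxifen replicate 3) to 6529 (without tamoxifen replicate 4) with libraries left out, and over all genes 1186 passed, with 459 to 2944. Peaks with 20 or fewer tags, such as Zbp1 -900 in oil, are limited by counting error.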
